A study of Mus musculus with 10 samples.

Results

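Isolated mouse islets were compared with the whole pancreas of E15.5 mouse embryos on 1-colour CodeLink Mouse Whole Genome arrays, with 2 arrays per tissue. These 4 arrays are part of a set of 10, which also covers embryoid bodies grown from embryonic stem cells with and without doxycycline-induced Pdx1 and Ngn3, and the insulinoma line βTC6. The 2 tissues were chosen by their labels alone. Of 34967 discovery probes, 26469 lay above background in either tissue, on both of its arrays, and were tested, and the 17485 of these with a single gene symbol stand for 15008 genes.

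In the study the tissues served as references for the induced embryoid bodies, and neither was treated. The labels call each array a biological replicate but do not say that the arrays came from separate dissections, so the p-values measure the spread between these arrays, which may be technical. The labels give no age, strain or sex for the islets. The study's text calls them adult, whereas a supplementary heading places them at E15.5. The islet and βTC6 arrays carry slide numbers from one range and the pancreas arrays from another, so slide range and tissue cannot be told apart. In a whole tissue, fewer cells of a type and less RNA per cell cannot be told apart either.

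Islets are clusters of hormone-secreting cells (β cells with insulin, α cells with glucagon, δ cells with somatostatin, PP cells with pancreatic polypeptide) set in a pancreas that consists mostly of acinar cells, which make digestive enzymes, and of ducts. At E15.5 the mouse pancreas is a branching, dividing epithelium inside mesenchyme, in which acinar cells have begun to make enzymes and endocrine cells bud off from Neurog3-positive progenitors. After birth β cells acquire glucose sensing and regulated secretion, and division slows.

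Values are given as scaled intensity, the spot's signal over its local background divided by the array's median, so that 1 is the median probe of an array. Values below 0.27 were set to 0.27. Between 69.5% and 71.8% of discovery probes were above background on the islet arrays and 74.0% to 74.3% on the pancreas arrays. The replicates correlated at 0.994 in islets and at 0.996 in pancreas over 18034 probes above background on all 10 arrays. Of the tissue's defining genes, several islet hormones were saturated on the islet arrays, but so were acinar enzymes, so the islet RNA also held exocrine transcripts. Xist, the RNA of the inactive X chromosome, read the floor of 0.27 on both arrays in islets and 6.60 and 6.44 in pancreas, while the Y-linked Eif2s3y read 11.9 and 10.97 in islets and 9.11 and 8.27 in pancreas. Both tissues thus showed Y-linked signal and only the pancreas arrays showed Xist, although a second Xist probe was at the floor on all 4 arrays.

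Promoters of 3 sets of genes are shown because their genes moved together between the tissues or bear on the exocrine signal. The sequences are the 150 bases before the annotated start, from RefSeq on GRCm38.p6, and motifs were searched on both strands in windows of 250 bases before to 50 after the start. In the cell cycle genes the capitals mark TTTGAA, the element known as CHR, which reads TTCAAA on the other strand, and CCAAT, which reads ATTGG on the other strand. Of the 45 cell cycle genes tested 44 passed the test as lower in islets, as did 37.5% of all genes tested. Of these 44, 36 had a promoter window, and 17 of these held TTTGAA, against 20.2% of all 27025 genes with a window. CCAAT was found in 27 of the 36 and in 41.1% of all genes, and both motifs in 17 of the 36 and in 7.97% of all genes. The sequences of Cdk1 (chr10:69352913-69353062, minus strand), Cdc20 (chr4:118437344-118437493, minus strand), Ube2c (chr2:164769779-164769928, plus strand) and Top2a (chr11:99024190-99024339, minus strand) follow.
Cdk1: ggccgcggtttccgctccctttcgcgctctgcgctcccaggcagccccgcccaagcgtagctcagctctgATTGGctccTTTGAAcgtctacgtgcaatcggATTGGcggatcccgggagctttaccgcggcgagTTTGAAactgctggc
Cdc20: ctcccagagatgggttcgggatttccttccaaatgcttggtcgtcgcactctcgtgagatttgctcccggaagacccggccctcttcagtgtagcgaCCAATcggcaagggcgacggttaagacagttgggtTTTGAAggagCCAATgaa
Ube2c: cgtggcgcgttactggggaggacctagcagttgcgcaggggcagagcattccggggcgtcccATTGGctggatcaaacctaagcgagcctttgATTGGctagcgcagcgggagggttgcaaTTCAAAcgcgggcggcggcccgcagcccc
Top2a: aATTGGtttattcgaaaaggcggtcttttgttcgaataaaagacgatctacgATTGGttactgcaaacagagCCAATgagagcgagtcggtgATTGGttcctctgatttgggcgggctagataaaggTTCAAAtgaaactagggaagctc

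In the secretory granule genes the capitals mark the palindrome TGACGTCA, the full cAMP response element. It was found in 2 of the 12 granule genes with a window, Chgb and Pcsk1, and in 2.03% of all genes. Their sequences are from chr2:132781492-132781641 and chr13:75089707-75089856, both on the plus strand.
Chgb: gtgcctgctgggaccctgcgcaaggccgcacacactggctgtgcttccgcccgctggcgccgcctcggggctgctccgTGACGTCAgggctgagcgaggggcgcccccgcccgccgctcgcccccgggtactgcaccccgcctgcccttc
Pcsk1: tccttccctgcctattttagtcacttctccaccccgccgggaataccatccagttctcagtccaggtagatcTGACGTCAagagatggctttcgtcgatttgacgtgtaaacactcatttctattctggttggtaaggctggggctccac

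In the acinar genes the capitals mark CACCTG, an E-box of the kind bound by basic helix-loop-helix factors such as Ptf1a, which reads CAGGTG on the other strand. It was found in 13 of the 21 tested acinar genes with a window and in 22.6% of all genes. The sequences shown are those of the elastase gene Cela1 (chr15:100687921-100688070, minus strand) and of the lipase gene Cel (chr2:28563404-28563553, minus strand). A match describes the sequence and does not show that a factor binds there.
Cela1: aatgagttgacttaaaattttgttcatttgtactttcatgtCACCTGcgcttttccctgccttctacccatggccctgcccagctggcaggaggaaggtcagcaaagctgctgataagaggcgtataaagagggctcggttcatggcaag
Cel: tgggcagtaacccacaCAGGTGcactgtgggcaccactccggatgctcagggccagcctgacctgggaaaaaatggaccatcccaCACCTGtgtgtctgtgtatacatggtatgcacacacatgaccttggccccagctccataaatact

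The tissues differed at most measured genes. Of 26469 probes, 9191 (34.7%) were higher and 9207 (34.8%) lower in islets at an adjusted p under 0.05 (limma with Benjamini-Hochberg adjustment over all probes tested). At gene level 5253 of 15008 genes (35.0%) were higher and 5621 (37.5%) lower, with a median log2 difference of -0.04. Every list count below is to be read beside these shares. The lists and their members were chosen with earlier results of these data known, so a list's unanimity or rank is no independent test. A difference of at least 2-fold was reached by 4396 probes (16.6%) that were higher and 4527 (17.1%) that were lower. The 2 islet arrays did not overlap the 2 pancreas arrays at 86.8% of probes, so non-overlap sets no gene apart here. When the arrays were scaled to 62 bright control probes instead of the median probe, the median difference moved by -0.36 and the split became 5738 higher against 12632 lower.

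**Figure D1:**
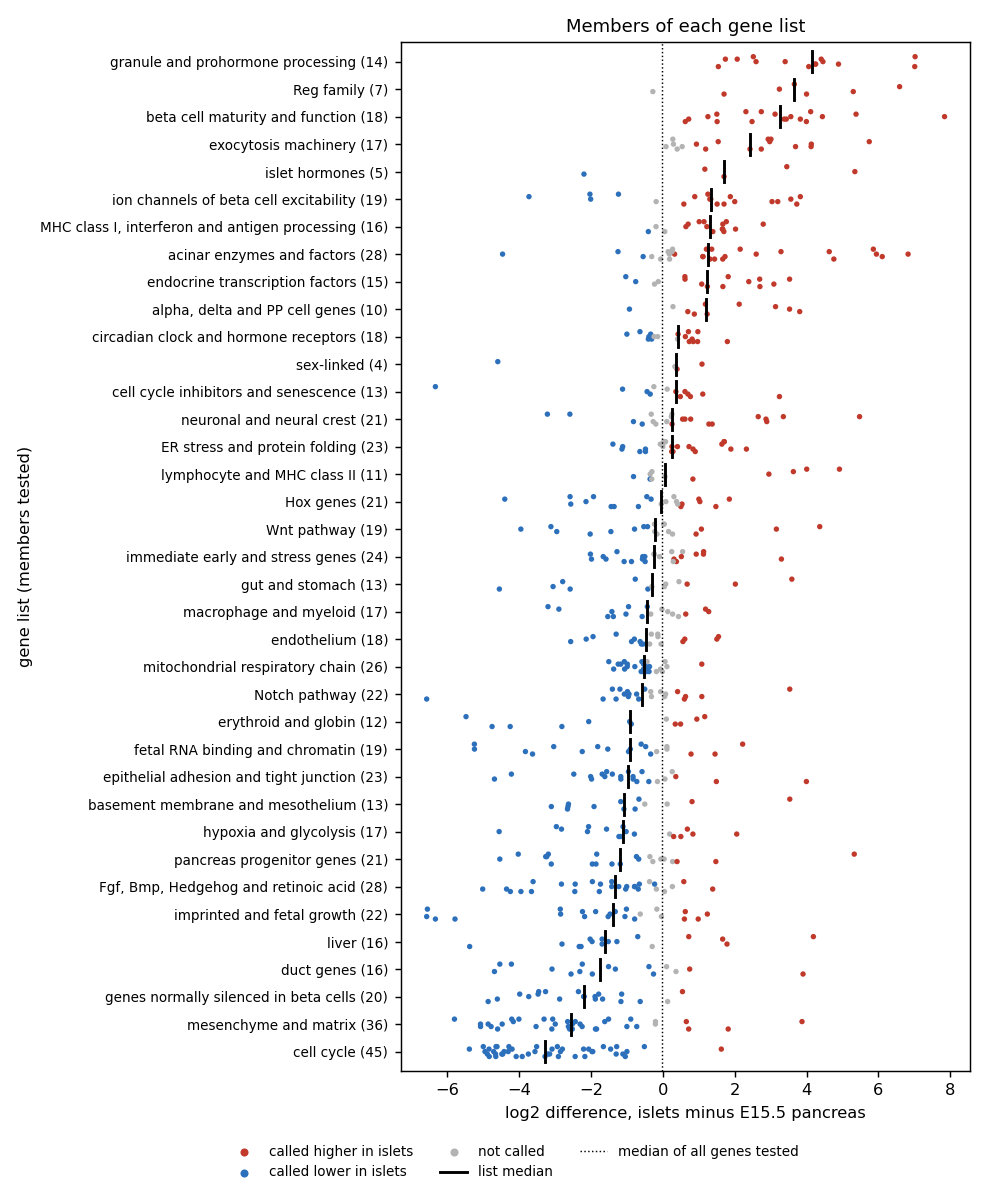
Log2 difference (islets minus E15.5 pancreas) of every tested member of each gene list, ordered by list median, with the number tested in brackets. Red points passed the test as higher in islets, blue points as lower, grey points did not pass, the black bar is the list median and the dotted line the median of all genes tested. Granule genes (median 4.15) lie at the top and cell cycle genes (median -3.28) at the bottom.

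Hormone genes of the α, δ and PP cells were higher in islets and ghrelin was lower. Ppy, which encodes pancreatic polypeptide, read 291 and 233 (both saturated) in islets, against 6.41 and 6.43 in E15.5 pancreas, a difference of at least 40.6-fold (adjusted p = 4.0e-11). Sst, somatostatin, read 291 and 286 (both saturated) in islets, against 26.2 and 26.6 in pancreas, at least 10.9-fold apart (adjusted p = 8.8e-11). Gcg, glucagon, read 309.9 on the single usable array (saturated) in islets, against 93.2 and 97.3 in pancreas. Because spots saturated, the true islet levels of these hormones lie above those read, and of Gcg the other islet array was set missing. Pyy, the peptide YY gene, followed with 298 and 279.5 (both saturated) in islets, against 133 and 124 in pancreas, at least 2.25-fold (adjusted p = 2.0e-05). Ghrl, ghrelin, a hormone of the fetal ε cells, went the other way, with 4.33 and 4.48 in islets and 21.4 and 19.02 in pancreas, 4.58-fold lower in islets (adjusted p = 9.8e-06). Ins1, Ins2 and Iapp, the genes of insulin and amylin, were not analysed here. The hormone list thus had 4 members higher and 1 lower of 5 tested, a median of 1.70.

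All 18 tested genes of β cell maturity and function were higher in islets, with a median log2 difference of 3.25. With arrays scaled to the control probes 16 of them were, and likewise 16 with only the 4 tissue arrays in the fit. Ucn3, the peptide urocortin 3 of mature β cells, had the largest rise read (several other rises are lower bounds, so their rank against it is not known), with 189 and 180.1 in islets, against 0.862 and 0.754 in E15.5 pancreas, 229-fold (log2 difference 7.84 ± 0.19, SE, n = 2 arrays each, adjusted p = 5.6e-11). βTC6 cells read Ucn3 at 1.49 and 1.53. Slc2a2, the glucose transporter GLUT2, read 72.6 and 73.5 in islets and 3.05 and 3.71 in pancreas, 21.7-fold (adjusted p = 9.5e-09). G6pc2, the islet glucose-6-phosphatase, read 35.9 and 30.4 in islets and 1.83 and 2.00 in pancreas, 17.3-fold (adjusted p = 1.5e-10). Slc30a8, which carries zinc into insulin granules, was 41.5-fold higher, and the islet arrays of all of these genes were far above the pancreas arrays. Gjd2, the connexin that couples β cells electrically, was 15.9-fold higher, and Adh1, an alcohol dehydrogenase, 10.8-fold.

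Transcription factors, channels and receptors of β cells were higher as well. Nkx6-1 read 214 and 175 in islets and 40.6 and 37.5 in pancreas, 4.96-fold (adjusted p = 2.7e-07). Mafa, an activator of the insulin gene, read 5.54 and 4.88 in islets and 1.62 and 2.07 in pancreas, 2.83-fold (adjusted p = 2.1e-04). The probe read for Pdx1 was close to background in both tissues, with 0.524 and 0.482 in islets and 0.281 and 0.331 in pancreas. There 1 pancreas array was at background, and the 1.65-fold difference passed the test (adjusted p = 0.0046). Whether this probe reports the Pdx1 transcript well was not tested, so its low reading does not show low expression. Both subunits of the KATP channel, which links glucose metabolism to membrane voltage, were higher in islets, Abcc8 by 2.85-fold and Kcnj11 by 2.38-fold. Glp1r, the receptor for the gut hormone GLP-1, read 2.94 and 2.67 in islets and was at background in pancreas, at least 10.4-fold higher (adjusted p = 4.6e-09).

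Among the α, δ and PP cell genes, 8 of 10 tested members were higher and 1 lower (median 1.21). Gcgr, the glucagon receptor, read 17.7 and 15.7 in islets and 1.27 and 1.12 in pancreas, 14.0-fold (adjusted p = 9.3e-10). Irx2, an α cell factor, read 4.29 and 3.88 in islets and 1.05 and 0.832 in pancreas, 4.36-fold (adjusted p = 4.9e-06). Sstr3, a somatostatin receptor, was 8.79-fold higher and Slc7a2, a transporter of basic amino acids, 11.5-fold. Hhex, a factor of δ cells and of the early foregut, was the member that fell, with 2.13 and 1.78 in islets and 3.66 and 3.75 in pancreas, 1.90-fold (adjusted p = 1.1e-04).

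**Figure D2:**
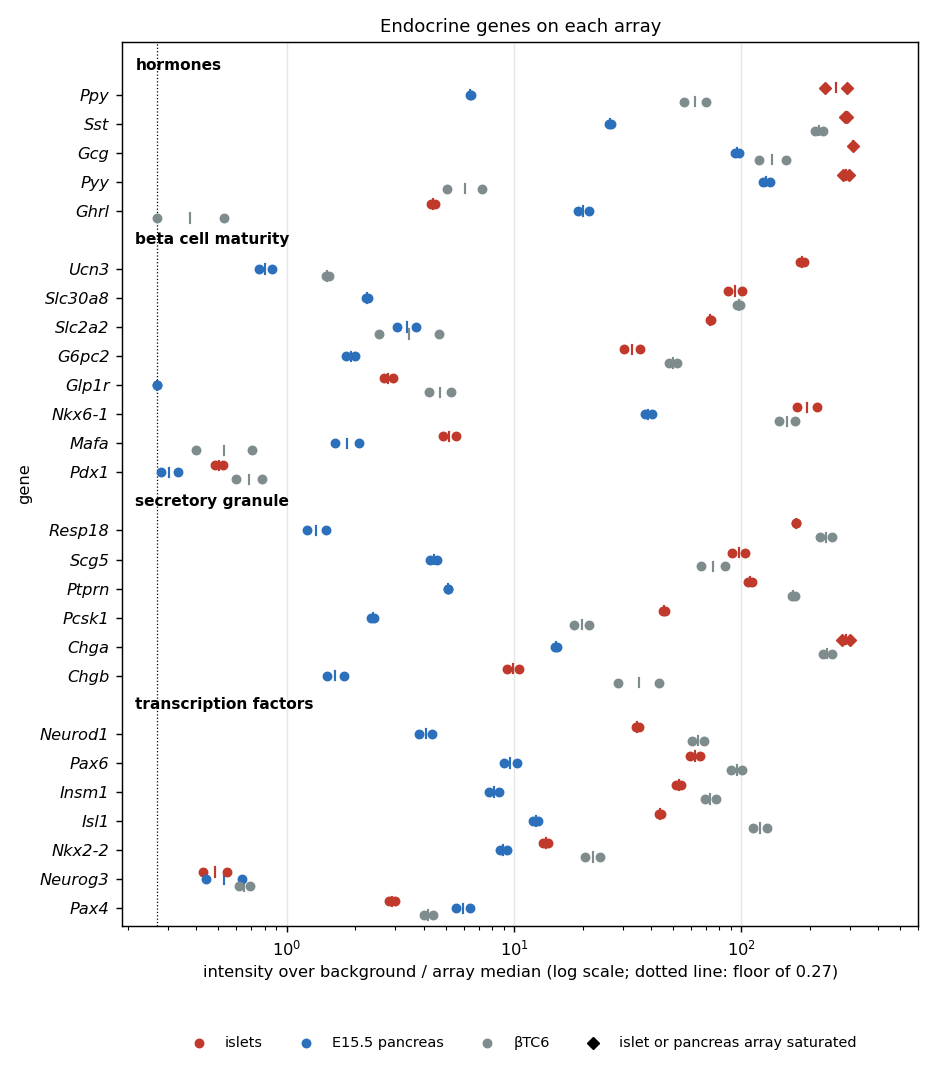
Scaled intensity (log axis) of endocrine genes on each array: islets in red, E15.5 pancreas in blue and βTC6 in grey, with 2 arrays per group and a bar at their geometric mean. Diamonds mark genes saturated on an islet or pancreas array. Islets lie right of pancreas at all genes plotted except Ghrl and Pax4, which lie left of it, and Neurog3, where the arrays overlap.

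Listed genes of the secretory granule were higher throughout. All 14 tested genes of the granule and prohormone list were higher in islets, with the highest list median of all (4.15). With only the 4 tissue arrays in the fit, 12 of them passed the test. The sum of the 13 members with values on every array was 1670.4 and 1543 in islets against 130.3 and 128 in pancreas. Resp18, a protein of endocrine granules, read 174 on both arrays in islets and 1.23 and 1.49 in pancreas, 129-fold (adjusted p = 1.2e-11). Gpr158, an orphan receptor also placed on this list, read 35.3 and 34.8 in islets and the floor of 0.27 on both arrays in pancreas, at least 129.7-fold. The granins, acidic proteins packed with the hormones, were higher as well: Chga by at least 18.9-fold, Scg3 by at least 29.6-fold and Chgb by 6.04-fold. Pcsk1, the convertase that cuts proinsulin, read 46.0 and 45.0 in islets and 2.42 and 2.35 in pancreas, 19.1-fold (adjusted p = 2.2e-10). Its inhibitor gene Pcsk1n was at least 10.6-fold higher. Chgb and Pcsk1, whose promoters are printed above, rose like all other tested members of the list, with or without TGACGTCA.

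Of 17 tested genes of vesicle fusion, 12 were higher in islets and none was lower (median 2.42). Syt4, a synaptotagmin of secretory vesicles, read 21.2 and 18.3 in islets and 0.390 and 0.346 in pancreas, 53.6-fold (adjusted p = 9.4e-11). Unc13a, which primes vesicles, was 17.4-fold higher, Syp, the vesicle protein synaptophysin, 12.9-fold, and Rab3a, a vesicle GTPase, 7.62-fold. Cplx2, Rab3d, Doc2b, Stx1a and Rims2 did not pass the test, with log2 differences between 0.09 and 0.54.

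Of 15 tested transcription factors of the endocrine lineage, 11 were higher and 2 lower in islets (median 1.24). Neurod1, which acts directly below Neurog3 in development, read 34.2 and 35.3 in islets and 3.81 and 4.37 in pancreas, 8.51-fold (adjusted p = 5.5e-10). Pax6, needed for hormone gene expression, read 65.8 and 59.4 in islets and 8.99 and 10.3 in pancreas, 6.50-fold (adjusted p = 1.5e-09). St18 was 11.5-fold higher, Insm1 6.47-fold and Rfx6 5.24-fold. The probe of Neurog3 itself, the factor of endocrine progenitors, read near background in both, at 0.431 and 0.546 in islets and 0.441 and 0.637 in pancreas. The arrays overlapped (adjusted p = 0.61), and whether this probe reports the transcript well was not tested. Pax4, a progenitor factor of β and δ cells, was lower in islets, with 2.83 and 3.00 against 5.55 and 6.40 in pancreas, 2.04-fold (adjusted p = 4.4e-06). Hnf4a, a nuclear receptor of endoderm epithelia, was lower by 1.69-fold.

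Progenitor genes were mostly lower. Of 21 tested, 13 were lower and 3 higher in islets (median -1.18). Sox9, the factor of bipotent trunk progenitors and later of ducts, read 0.27 and 0.314 in islets and 7.01 and 6.51 in pancreas. It was 23.2-fold lower as read (adjusted p = 2.5e-09), with 1 islet array at background. Ptf1a, which drives acinar fate, read 3.17 and 3.49 in islets and 30.5 and 33.3 in pancreas, 9.58-fold lower (adjusted p = 1.2e-08). Onecut1 read the floor of 0.27 on both arrays in islets and 1.16 and 0.958 in pancreas, at least 3.90-fold lower. Nr5a2, a nuclear receptor of acinar cells and progenitors, fell by 16.3-fold and Tead2, a partner of Yap1, by 9.11-fold. The exception in size was Gata4, a zinc-finger factor of the early pancreas, with 169 and 155 in islets and 3.83 and 4.25 in pancreas, 40.1-fold higher (adjusted p = 2.7e-11). βTC6 cells also read Gata4 high, at 42.5 and 45.1.

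Most digestive enzyme genes were higher on the islet arrays than in E15.5 pancreas. Of 28 tested acinar genes, 18 were higher and 3 lower in islets (median 1.26), and the sum of 26 of them was 4834 and 4243 in islets against 2166 and 2078 in pancreas. On the βTC6 arrays Cpa1 and Amy2a5 were at the floor. Pla2g1b, the pancreatic phospholipase A2, read 247 and 209 (both saturated) in islets, against 2.07 and 1.94 in pancreas, at least 113-fold (adjusted p = 1.2e-11). Ctrl, a chymotrypsin-like protease, read 298 and 259 (both saturated) in islets, against 4.47 and 4.56 in pancreas, at least 61.5-fold. These enzymes stand apart from those already abundant in the embryo, since Amy2a5 (amylase) and Cpa1 (carboxypeptidase A1) were saturated in both tissues and give no fold. Cela1 and Cel, whose promoters are printed above, were at least 2.48-fold and at least 2.57-fold higher in islets. Prss3 read 160.3 and 135 in islets and 160.2 and 147 in pancreas, and Ctrc 51.4 and 47.7 in islets and 59.6 and 63.2 in pancreas, and neither passed the test, although a second Prss3 probe, with 145 and 140.2 in islets and 99.5 and 109 in pancreas, was 1.37-fold higher (adjusted p = 0.0034).

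The 4 acinar transcription factors measured were lower in islets. Bhlha15 (Mist1), which organises the secretory apparatus of acinar cells, read 0.732 and 0.562 in islets and 1.50 and 1.54 in pancreas, 2.38-fold lower (adjusted p = 2.7e-04). Rbpjl, the subunit that joins Ptf1a in mature acinar cells, read 10.4 and 10.5 in islets and 36.5 and 38.4 in pancreas, 3.58-fold lower (adjusted p = 1.4e-08). Ptf1a and Nr5a2 were also lower, as given above. The water channel Aqp8 fell most among the acinar genes, with 1.05 and 1.07 in islets and 24.0 and 22.7 in pancreas, 22.0-fold (adjusted p = 1.3e-07). How much of the acinar RNA came from exocrine tissue left on the islets was not tested.

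The Reg genes, secreted C-type lectins made by acinar and islet cells under stress or regeneration, were higher in 6 of 7 cases (median 3.66). Reg3b read 25.3 and 26.7 in islets and the floor of 0.27 on both arrays in pancreas, at least 96.2-fold higher (adjusted p = 2.4e-11). Reg2 read 27.0 and 22.1 in islets and 0.636 and 0.605 in pancreas, 39.4-fold (adjusted p = 1.4e-10). Reg1 read 344 on the single usable array (saturated) in islets, with the other set missing, and 21.5 on both arrays in pancreas, at least 15.98-fold. Reg4 was near background in both tissues. Tff2 (a trefoil peptide) and Dmbt1 (a mucin-like scavenger protein of pancreatic secretions) were 27.1-fold and 58.0-fold higher in islets.

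**Figure D3:**
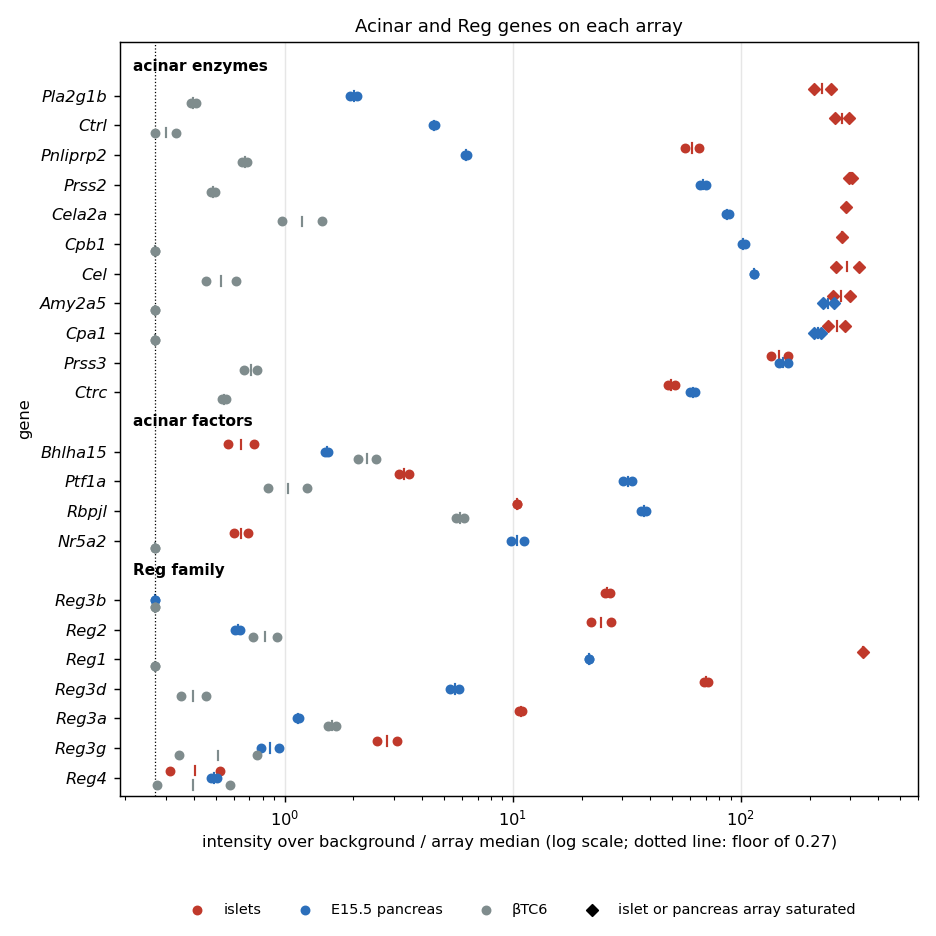
Scaled intensity (log axis) of acinar and Reg genes on each array, with islets in red, E15.5 pancreas in blue, βTC6 in grey, a bar at the geometric mean of the 2 arrays and diamonds where an islet or pancreas array was saturated. Enzymes lie right of the pancreas on the islet arrays, apart from Prss3 and Amy2a5, which overlap it, and Ctrc, which lies slightly left of it. Amy2a5 and Cpa1 were saturated in both tissues, so their positions give no direction. The 4 acinar factors lie left of the pancreas, Ptf1a by 9.58-fold.

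Duct genes were mostly lower in islets, 12 of 16 tested (median -1.74), with 2 higher. Krt19, the keratin of duct cells, read 1.15 and 0.945 in islets and 25.8 and 27.9 in pancreas, 25.8-fold lower (adjusted p = 4.9e-11). Cldn10, a claudin of tight junctions, read 6.46 and 5.69 in islets and 115 and 111 in pancreas, 18.6-fold lower, and Car2, a carbonic anhydrase, fell by 8.49-fold. Cftr, the chloride channel of ducts, was near background in both tissues and did not pass the test. Tspan8, a tetraspanin, was the large exception, with 36.0 and 31.5 in islets and 2.22 and 2.29 in pancreas, 14.9-fold higher.

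Epithelial adhesion genes fell in 17 of 23 cases and rose in 3 (median -0.96). E-cadherin itself, Cdh1, did not pass the test, at 53.8 and 45.5 in islets and 58.2 and 51.8 in pancreas (adjusted p = 0.35), although it was lower by 0.51 on the log2 scale when arrays were scaled to the control probes. Epcam, an adhesion protein of progenitors and ducts, read 30.3 and 29.7 in islets and 88.2 and 95.6 in pancreas, 3.06-fold lower (adjusted p = 7.7e-07). Cldn3 read 18.8 and 19.3 in islets and 71.4 and 79.3 in pancreas, 3.96-fold lower.

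Genes of the mesenchyme that surrounds the embryonic epithelium were mostly lower in islets, and the list had the second lowest median of all. Of 36 tested genes of mesenchyme and matrix, 30 were lower and 4 higher in islets (median -2.56), and their sum was 174 and 177 in islets against 890.1 and 884 in pancreas. Col1a1, a chain of fibrillar collagen I, read 2.22 and 2.16 in islets and 72.8 and 74.7 in pancreas, 33.7-fold lower (adjusted p = 1.3e-11). Pdgfra, the PDGF receptor of mesenchymal cells, read 0.760 and 0.824 in islets and 24.8 and 21.3 in pancreas, 29.1-fold lower (adjusted p = 2.5e-10). Fn1, fibronectin, fell by 55.7-fold, Col5a2 by 27.5-fold and Col6a1 by 22.2-fold. Col3a1 remained well above background in islets, at 23.8 and 23.6, against 197 and 199.6 (both saturated) in pancreas. Vim, the intermediate filament of mesenchyme, read 14.3 and 13.8 in islets and 83.1 and 86.7 in pancreas, 6.05-fold lower. The 4 members that were higher include Twist1, a basic helix-loop-helix factor, with 25.6 and 27.1 in islets and 1.81 and 1.78 in pancreas, and Isl1, which is also an islet factor. Of 13 genes of basement membrane and mesothelium, 9 were lower, 2 higher and 2 did not pass (median -1.08). The laminin and nidogen chains that fell include Lamb1 by 6.24-fold, Lamc1 by 6.18-fold and Nid1 by 6.29-fold. The mesothelial gene Msln rose, with 3.25 and 3.73 in islets and 0.335 and 0.27 in pancreas. For Wt1, also a mesothelial gene, the reported probe did not pass the test (adjusted p = 0.76). Another Wt1 probe read the floor of 0.27 on both arrays in islets and 7.79 and 7.86 in pancreas, at least 29.0-fold lower.

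Endothelial genes shifted less, with 4 (22.2%) higher and 9 (50%) lower of 18 tested (median -0.46). Over all genes the shares were 35.0% and 37.5%. Kdr, the VEGF receptor of capillaries, read 22.6 and 21.1 in islets and 23.7 and 24.3 in pancreas (adjusted p = 0.41), and was lower by 0.49 on the log2 scale under control-probe scaling. Emcn, a sialomucin of capillaries and veins, was 2.93-fold higher in islets, whereas Vwf, von Willebrand factor, was 4.39-fold lower and Cldn5, the endothelial claudin, 5.92-fold lower. Vegfa, the growth factor that islet cells supply to capillaries, read 39.96 and 35.3 in islets and 9.13 and 8.95 in pancreas, 4.16-fold higher (adjusted p = 4.0e-09).

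Globin and other red-cell genes were mostly lower in islets. Hba-x, the embryonic α-like globin, read the floor of 0.27 on both arrays in islets and 13.0 and 11.2 in pancreas, at least 44.6-fold lower (adjusted p = 1.1e-10). Alas2, the erythroid enzyme of haem synthesis, read 1.43 and 1.58 in islets and 40.5 and 40.3 in pancreas, 27.0-fold lower (adjusted p = 2.4e-10). Slc4a1, the band 3 anion exchanger of red cells, fell by at least 7.01-fold. Of 12 tested erythroid genes, 7 were lower and 4 higher (Gata1, Epb42, Rhd and Tal1). With only the 4 tissue arrays in the fit, 2 were lower and 3 higher.

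Myeloid genes fell in 9 of 17 cases and rose in 3 (median -0.43). Mrc1, the mannose receptor of resident macrophages, read 0.809 and 0.724 in islets and 6.99 and 7.04 in pancreas, 9.17-fold lower (adjusted p = 3.8e-09), and Lyz2, lysozyme, was 7.43-fold lower. Adgre1 and Ptprc, which define macrophages and leukocytes, were near background in both tissues. Of 11 tested genes of lymphocytes and MHC class II, 5 were higher, 2 lower and 4 did not pass, with a median of 0.06 that became -0.30 under control-probe scaling (5 higher and 4 lower). Of those that rose, 4 were the MHC class II genes measured, which antigen-presenting cells use. Cd74, the invariant chain, read 37.5 and 33.4 in islets and 2.28 and 2.14 in pancreas, 16.03-fold higher (adjusted p = 1.5e-08), H2-Eb1 was 30.2-fold higher, H2-Ab1 12.4-fold and H2-Aa 7.73-fold. The lymphocyte markers Cd3e, Cd8a and Ms4a1 were at background on all 4 arrays, and Cd79a was slightly lower in islets, at 7.05 and 7.03 against 9.61 and 8.45 in pancreas, a call that was lost without pancreas replicate 1 (adjusted p = 0.0686).

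Genes of MHC class I, antigen processing and interferon response were higher in 13 of 16 cases and lower in 1 (median 1.31). H2-D1, a classical class I chain, read 118 and 107 in islets and 35.4 and 35.2 in pancreas, 3.18-fold higher (adjusted p = 1.5e-07). Psmb8, a subunit of the immunoproteasome, read 9.78 and 9.67 in islets and 2.55 and 2.25 in pancreas, 4.06-fold higher. The interferon regulatory factors Irf1 and Irf7 were 2.62-fold and 3.15-fold higher. βTC6 cells, which come from a β cell tumour, read H2-D1 at 187 and 222.

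**Figure D4:**
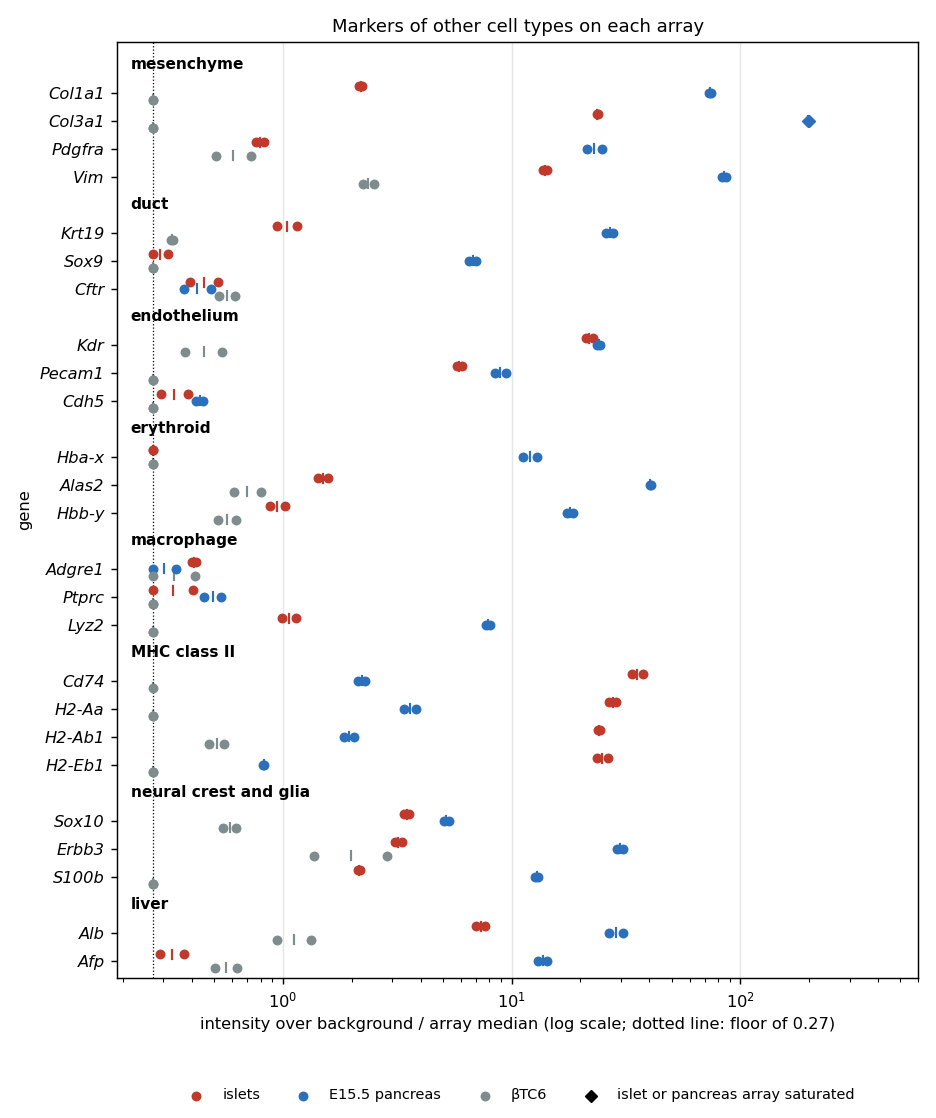
Scaled intensity (log axis) of marker genes of other cell types on each array, with islets in red, E15.5 pancreas in blue, βTC6 in grey, a bar at the geometric mean of the 2 arrays and diamonds for saturation. Mesenchymal and erythroid markers and Krt19 and Sox9 lie left on the islet arrays, MHC class II genes lie right, and Cftr and Adgre1 are near the floor in both tissues.

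Read by 1 probe per gene, cell cycle genes fell almost without exception. Of 45 tested, 44 were lower in islets and 1 was higher, with the lowest list median of all (-3.28, against -0.04 over all genes). Mki67, the proliferation antigen Ki-67, read 3.12 and 2.72 in islets and 92.2 and 94.0 in pancreas, 31.9-fold lower (adjusted p = 1.3e-11). Cdk1, the kinase that drives mitosis, read 3.75 and 3.33 in islets and 75.4 and 75.7 in pancreas, 21.4-fold lower (adjusted p = 2.2e-11). Top2a, the topoisomerase of dividing cells, read 1.41 and 1.197 in islets and 35.7 and 38.6 in pancreas, 28.6-fold lower, although a second Top2a probe was higher by 0.77 on the log2 scale. E2f8, a repressor of the E2F family induced in S phase, had the largest fall read in the list, 41.8-fold. Cdt1, which licenses replication origins, fell by 25.1-fold, Ccna2, cyclin A2, by 28.5-fold, and Birc5, survivin, by 30.9-fold. Cdc20 and Ube2c, whose promoters are printed above, fell by 19.8-fold and 25.0-fold. A second Ccnd3 probe was at least 2.32-fold higher (adjusted p = 1.3e-05), while the reported one was 3.15-fold lower. A second Cdc6 probe read at least 1.75-fold higher without passing the test (adjusted p = 0.053), while the reported one was 24.5-fold lower. Second probes of Aurka, Kif11 and Tk1 were lower like the reported ones. βTC6 cells read Mki67 at 184 and 170.0 and Cdk1 at 165 and 183.

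The G1 cyclins and their kinase differed among themselves. Ccnd2, cyclin D2, the main D-type cyclin of β cells, was the member that rose, with 115 and 110.3 in islets and 37.2 and 35.8 in pancreas, 3.09-fold (adjusted p = 1.7e-08). Ccnd1, cyclin D1, read 1.08 and 1.24 in islets and 4.25 and 4.72 in pancreas, 3.86-fold lower (adjusted p = 4.2e-07). Cdk4, their shared kinase, fell less than most of the list, with 42.8 and 34.8 in islets and 89.2 and 99.1 in pancreas, 2.44-fold.

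Cell cycle inhibitors showed no common direction, with 7 higher and 4 lower of 13 tested, and 4 higher and 5 lower under control-probe scaling. Cdkn2b, the p15 inhibitor of Cdk4, read 16.2 and 13.8 in islets and 1.66 and 1.50 in pancreas, 9.48-fold higher (adjusted p = 2.5e-09). Cdkn1c, the imprinted inhibitor p57, read 1.17 and 1.10 in islets and 94.3 and 88.2 in pancreas, 80.4-fold lower (adjusted p = 2.2e-10). Cdkn1a, p21, did not pass the test, with 5.56 and 5.55 in islets and 5.02 and 5.20 in pancreas. Cdkn2a, which encodes p16 and p19Arf, was at or near background on all 4 arrays.

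Imprinted and fetal growth genes held 4 of the 15 largest falls of all named genes (Dlk1, H19, Cdkn1c and Igf2), and 15 of 22 tested were lower and 4 higher (median -1.40). Dlk1, a Notch-like protein of fetal tissue, read 1.36 and 1.21 in islets and 118 and 126 in pancreas, 95.2-fold lower (adjusted p = 4.1e-09). H19, a fetal noncoding RNA, read 2.49 and 2.22 in islets, against 234 and 209 (both saturated) in pancreas, at least 93.9-fold lower. Igf2, the growth factor transcribed from the same locus, read 2.58 and 2.90 in islets and 171 and 133 in pancreas, 55.1-fold lower (adjusted p = 7.5e-11). The βTC6 arrays read Igf2 at 276 and 289.8 and H19 at 3.00 and 2.95, so in that line only Igf2 of the pair was high. Grb10, an inhibitor of growth factor receptors, remained at 43.4 and 40.5 in islets, against 207 and 189 (both saturated) in pancreas. Nnat fell by 4.52-fold. The probe reported for Gnas was 2.77-fold lower, while its second probe was higher by 1.59 on the log2 scale. For Meg3 the reported probe was 2.02-fold lower, while its other probes were higher by 0.89, 1.46 and 1.49 on the log2 scale.

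Fetal RNA binding and chromatin genes were lower in 13 of 19 cases and higher in 3 (median -0.90). Igf2bp3, an RNA-binding protein of fetal tissue, read the floor of 0.27 on both arrays in islets and 10.8 and 9.76 in pancreas, at least 37.9-fold lower (adjusted p = 2.7e-11). Hmga2, a chromatin protein repressed by let-7, was at least 37.9-fold lower, with both islet arrays at background. Ezh2, the methyltransferase of Polycomb, read 1.40 and 1.36 in islets and 15.9 and 18.2 in pancreas, 12.4-fold lower (adjusted p = 1.6e-10). Uhrf1 and Dnmt1, which maintain DNA methylation in dividing cells, fell by 8.21-fold and 4.74-fold. Lin28b, which blocks let-7 processing, did not pass the test, at 1.99 and 1.82 in islets and 2.18 and 2.10 in pancreas, and was lower by 0.53 on the log2 scale under control-probe scaling.

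**Figure D5:**
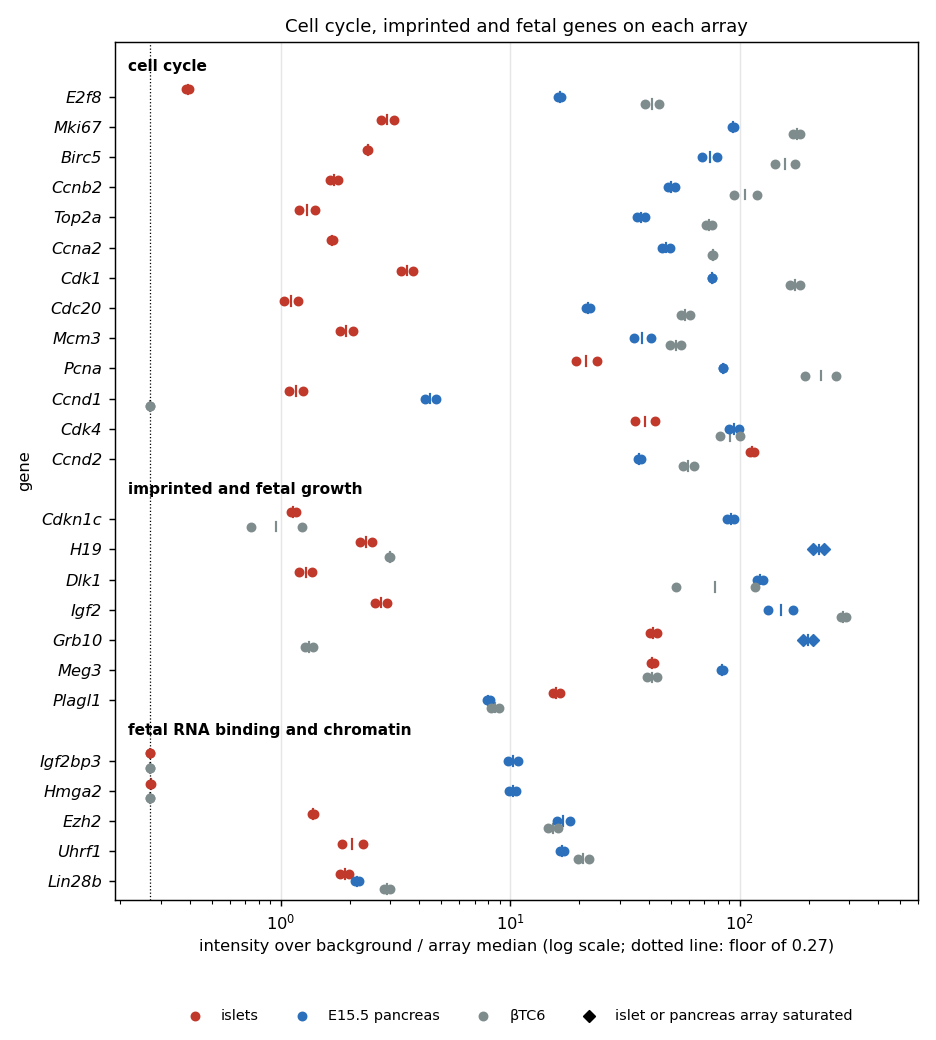
Scaled intensity (log axis) of cell cycle, imprinted and fetal genes on each array, with islets in red, E15.5 pancreas in blue, βTC6 in grey, a bar at the geometric mean of the 2 arrays and diamonds for saturation. Islets lie left of pancreas at all genes plotted but Ccnd2 and Plagl1, while βTC6 lies right of pancreas at most cell cycle genes and at the floor for Ccnd1, Igf2bp3 and Hmga2. Meg3 is plotted by its reported probe only, and its other probes were higher in islets.

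Genes kept silent in mature β cells (the disallowed genes) were lower in 18 of 20 cases (median -2.20) and higher in 1. Ldha, which turns pyruvate into lactate, read 8.70 and 8.51 in islets and 143 and 129 in pancreas, 15.8-fold lower (adjusted p = 5.0e-09). Slc16a1, the monocarboxylate transporter that would let pyruvate trigger insulin release, read 0.582 and 0.636 in islets and 2.68 and 2.93 in pancreas, 4.61-fold lower (adjusted p = 1.2e-06). Mgst1, a glutathione transferase, fell by 24.4-fold, Lmo4 by 10.97-fold and Hk1, a high-affinity hexokinase, by 1.55-fold. Rest, the repressor of neuronal and endocrine genes outside those cells, read 3.16 and 3.13 in islets and 9.55 and 10.6 in pancreas, 3.20-fold lower (adjusted p = 3.8e-08). Pdgfra, given above, is also on this list, and the member that rose was Zfp36l1. Probes disagreed for 2 members, as the other 2 probes of Zfp36l1 were lower by 3.16 and 3.25 on the log2 scale, and a second probe of Igfbp4, a binding protein of insulin-like growth factors, was 3.03-fold higher (adjusted p = 8.8e-07) while the reported one was 13.3-fold lower.

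Genes of hypoxia and glycolysis were lower in 11 of 17 cases and higher in 5 (median -1.11). Car9, a carbonic anhydrase induced by hypoxia, read 2.19 and 2.30 in islets and 51.6 and 54.0 in pancreas, 23.5-fold lower (adjusted p = 9.0e-10). Slc2a1, the glucose transporter GLUT1, read 0.880 and 0.806 in islets and 5.47 and 7.90 in pancreas, 7.80-fold lower (adjusted p = 4.7e-06), which is opposite to the transporter Slc2a2 above. Both were far apart between the tissues. Pdk1, which shuts pyruvate out of the mitochondrion, fell by 4.28-fold and Ddit4, an inhibitor of mTORC1, by 7.07-fold. Respiratory chain genes shifted little but mostly one way, 19 lower and 1 higher of 26 tested (median -0.54). Uqcrc2, a subunit of complex III, read 34.9 and 33.6 in islets and 96.1 and 98.4 in pancreas, 2.84-fold lower, whereas Ndufa1, of complex I, read 131 and 115 in islets and 59.2 and 56.7 in pancreas, 2.12-fold higher.

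Genes of protein folding in the endoplasmic reticulum split, with 12 higher and 6 lower of 23 tested, a median of 0.25 that became -0.11 under control-probe scaling. Hspa5, the chaperone BiP, read 120.5 and 110.2 in islets and 37.3 and 36.5 in pancreas, 3.12-fold higher (adjusted p = 7.8e-09). Ddit3, the stress factor CHOP, read 24.9 and 25.4 in islets and 7.67 and 7.72 in pancreas, 3.27-fold higher (adjusted p = 9.5e-08). The arrays of both genes agreed closely within each tissue. Wfs1, the gene of Wolfram syndrome, was 3.71-fold higher and Dnajb9, a co-chaperone, 5.01-fold. P4hb, protein disulfide isomerase, read 60.0 on both arrays in islets and 130.3 and 134 in pancreas, 2.20-fold lower (adjusted p = 9.6e-08), and Edem1, of glycoprotein degradation, was 2.62-fold lower. Xbp1, the factor that expands the secretory pathway, did not differ beyond the arrays' spread, with 38.2 and 37.2 in islets and 35.2 and 40.5 in pancreas.

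Ion channels of β cell excitability were higher in 14 of 19 cases and lower in 4 (median 1.33). Kcnmb2, a β subunit of the BK potassium channel, read 6.33 and 6.32 in islets and 0.581 and 0.494 in pancreas, 11.8-fold higher (adjusted p = 3.4e-09). The sodium channel Scn9a read 2.31 and 2.66 in islets and the floor of 0.27 on both arrays in pancreas, at least 9.17-fold higher. Kcnq1, an imprinted potassium channel, read 0.965 and 0.944 in islets and 13.1 and 12.2 in pancreas, 13.2-fold lower (adjusted p = 3.5e-09), and the T-type calcium channel Cacna1h was 4.08-fold lower. Kcnq1 lies in the imprinted cluster that also holds Cdkn1c, which fell as given above.

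Among developmental signalling pathways, the Fgf, Bmp, Hedgehog and retinoic acid list held the largest of the 3 shares of lower members. Of 28 tested genes of the Fgf, Bmp, Hedgehog and retinoic acid pathways, 22 were lower and 2 higher (median -1.32). Among ligands, Bmp7 read 2.67 and 2.19 in islets and 47.8 and 44.0 in pancreas, 18.9-fold lower (adjusted p = 8.0e-11). Among the enzymes that make retinoic acid, Aldh1a2 fell by 20.4-fold and Aldh1a1 by 15.45-fold, and Crabp1, which binds retinoic acid in the cytoplasm, by 32.3-fold. Of 22 Notch pathway genes, 12 were lower and 5 higher (median -0.59). The receptor Notch1 read 7.31 and 7.65 in islets and 22.7 and 24.7 in pancreas, 3.17-fold lower (adjusted p = 1.4e-07), and the target Heyl was 2.65-fold lower, whereas Dner, a noncanonical ligand of neurons, read 4.09 and 4.12 in islets and 0.326 and 0.387 in pancreas, 11.6-fold higher. Of 19 Wnt pathway genes, 8 (42.1%) were lower, near the 37.5% of all genes, 4 were higher and 7 did not pass (median -0.23). The ligand Wnt4 read 44.1 and 38.9 in islets and 4.69 and 4.59 in pancreas, 8.93-fold higher (adjusted p = 3.8e-09), the receptor Fzd2 was at least 8.66-fold lower and the secreted antagonists Sfrp1 and Sfrp2 were 7.74-fold and at least 15.48-fold lower.

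The Hox genes, which mark position along the body axis, were lower in 10 (47.6%) and higher in 6 (28.6%) of 21 cases. Over all genes 37.5% were lower and 35.0% higher, and the list median was -0.05, against -0.04. Hoxa5 read 1.26 and 1.24 in islets and 26.9 and 26.0 in pancreas, 21.1-fold lower (adjusted p = 1.9e-09), and Hoxb6 read 2.24 and 2.33 in islets and 13.5 and 13.9 in pancreas, 5.99-fold lower. Neighbours in 1 cluster differed in direction, since Hoxb5, next to Hoxb6, read 12.5 and 15.48 in islets and 6.89 and 6.99 in pancreas, 2.00-fold higher (adjusted p = 2.0e-05).

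The largest differences outside the lists were spread over several roles. Serpina6, the corticosteroid-binding globulin of plasma, showed the largest fall read, with the floor of 0.27 on both arrays in islets and 161 and 168 in pancreas, at least 608-fold (adjusted p = 2.2e-11). Ang, the ribonuclease angiogenin, read 0.272 and 0.419 in islets and 52.6 and 54.1 in pancreas, 158-fold lower as read, with 1 islet array at background. Wfdc2, a secreted protease inhibitor of epithelia, was at background in islets and read 28.9 and 31.3 in pancreas, at least 111-fold lower. Mdk, the growth factor midkine, fell by 58.7-fold, Gpc3, a fetal heparan sulfate proteoglycan, by at least 79.9-fold, and Aldh1b1, an aldehyde dehydrogenase of pancreatic progenitors, by 56.0-fold. Upward, Defb1, a β-defensin, read 70.6 and 57.6 in islets and 0.330 and 0.355 in pancreas, 186-fold higher (adjusted p = 3.9e-10). Dapl1 was 141-fold higher, Slc7a14 100.3-fold and Abca5, a lipid transporter, 87.3-fold. The probes named Dpy19l1 and Ip6k3 gave nearly the same values, 156 and 147 for Dpy19l1 and 151 and 141 for Ip6k3 in islets, against 1.22 and 1.41 for Dpy19l1 and 1.17 and 1.44 for Ip6k3 in pancreas. The remaining extremes, Gm5334, Olfr649, Olfr1179, Mpig6b, Rpl29, Flrt2, Lrrc17 and Madcam1, rest on the deposited probe names, and the study's methods call the annotation of part of the array's probes faulty. Of 1167 genes with at least 2 probes that passed the test, 298 had probes that passed in opposite directions. Second probes of Pdgfra, Hmga2, Ldha and Uqcrc2 were at or near the floor in both tissues, so for these genes the falls rest on the reported probe.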

How the data were processed

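Total RNA was hybridised to 1-colour CodeLink Mouse Whole Genome arrays, 2 arrays per group. The authors deposited scanner tables from CodeLink Expression Analysis 4.1.0.29054 with spot mean and local background intensity and a quality flag per spot, and a value table of intensity that equals the background-subtracted intensity relative to the median discovery probe of the same array. A deposited column of signal over the software's noise level was not used for results. Intensities were recomputed from the scanner tables, spots flagged as masked, contaminated or irregular were set missing, saturated spots were kept as lower bounds, and values were set to at least 0.27 before log2. Probes above background on both arrays of islets or of E15.5 pancreas were tested with limma 3.58.1 in R 4.3.3 (lmFit over all 10 arrays and 5 groups, eBayes with trend and robust, Benjamini-Hochberg adjustment, threshold 0.05). Where the dimmer tissue was at background on both arrays or the brighter was saturated on both, the fold is given as "at least", the dim level being, per array, the higher of the lowest signal above background and the probe's own.

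Probes were named through the deposited gene identifiers and a RefSeq table of GRCm38.p6: 21615 probes had 1 symbol, 681 several and 12671 none. A gene was read by the probe whose accession the study lists, otherwise by its brightest probe over all arrays. The study's removal of invalid probes and its GeneSpring step were not repeated. Named genes are the 15 largest rises and falls, the defining members of each list and up to 4 further called members per list with the smallest adjusted p. Other members given as examples were chosen after their values were seen. Members and lists were chosen with earlier results of these data known. Summaries used pandas 2.3.3 and numpy 2.4.6 under Python 3.11.15, plots used matplotlib 3.10.9, and the fit was tested on simulated data. Alternatives covered normalization, background correction, scaling, floor, filter, samples in the fit, variance model, replicate block, threshold, flags and leaving out each array.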

Additional observations from a re-analysis of the deposited data

How the results depend on the processing

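No gene named by the rule that passed the test changed direction under an alternative that measured it. Of those that did not pass, Amy2a5, Cpa1, Cdkn1a and Cftr were lower in islets instead of higher under control-probe scaling, and Amy2a5, Cftr, Neurog3 and Xbp1 changed sign under others. The requirement of signal on all 4 arrays left fewer named genes to compare. With only the 4 arrays of the 2 tissues in the fit, 9674 probes were higher and 9700 lower. Some list counts fell in that fit: 16 β cell maturity genes, 12 granule genes and 4 Reg genes were higher. In the same fit 38 cell cycle genes and 2 erythroid genes were lower. The vesicle fusion list kept its 12 higher members. The numbers of higher and lower probes (9191 and 9207) were within 1.5 times of these values under all alternatives but the following. With a difference of at least 2-fold required in addition, 4396 probes were higher and 4527 lower. With arrays scaled to the bright control probes, an alternative chosen after seeing the data, 5738 probes were higher and 12632 lower, so that 31.2% of the calls were higher against 50.0% with the median probe. Leaving out each array in turn gave 7872 to 8456 probes higher and 8082 to 8469 lower, the lone array of a tissue being assumed to vary like the other groups. The replicate numbers were shared across the tissues but did not pair the arrays, as the deviations of same-numbered arrays correlated at -0.08, and the fit with the replicate block called 9087 probes higher and 9114 lower. The call of Ptprc was lost with the replicate block (adjusted p = 0.051) and with 3 of the 4 arrays left out in turn, and Cdx2, Cd79a, Uty, Eif2s3y and Reg3g each lost the call in at least 1 alternative. With a floor of 1, calls of low genes such as Atf3, Fabp2, Hemgn, Hp, Nfe2 and Onecut1 were lost because fewer of their values lie above the floor. Depth here is signal over background: the median probe's net signal was 2.09 and 2.26 times its background on islet arrays and 2.43 and 2.54 times on pancreas arrays, and saturation limits the brightest genes to lower bounds.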

Other observations

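Genes of neurons and neural crest were measured because nerves and crest cells enter the embryonic pancreas and because islet cells share genes with neurons. Of 21 tested, 11 were higher and 4 lower in islets, with a median log2 difference of 0.26 that became -0.05 under control-probe scaling. Th, tyrosine hydroxylase, read 24.7 and 21.9 in islets, against 2.43 and 2.14 in E15.5 pancreas, 10.2-fold higher (adjusted p = 9.8e-10). Elavl4, an RNA-binding protein of neurons and endocrine cells, read 7.36 and 7.64 in islets and 1.23 and 1.15 in pancreas, 6.29-fold higher. The glial and crest marker Sox10 went the other way, with 3.56 and 3.40 in islets and 5.30 and 5.07 in pancreas, 1.49-fold lower (adjusted p = 0.0037), and S100b, a calcium-binding protein of glia, was 6.01-fold lower.

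Liver genes, which early endoderm can express, were lower in 11 of 16 cases and higher in 4 (median -1.60). Afp, the fetal α-fetoprotein, read 0.371 and 0.292 in islets, where 1 array was at background, and 14.3 and 13.0 in pancreas, 41.5-fold lower as read (adjusted p = 2.8e-10). Alb, albumin, read 7.66 and 6.98 in islets and 26.7 and 30.7 in pancreas, 3.92-fold lower, and the fibrinogen chain genes Fga and Fgb were 5.02-fold and 3.23-fold lower. Tat, the hepatic tyrosine aminotransferase, read 8.05 and 7.44 in islets and 0.461 and 0.391 in pancreas, 18.2-fold higher. Among gut genes 3 (23.1%) were higher and 6 (46.2%) lower of 13 tested, against 35.0% and 37.5% of all genes. Gast, the gastrin gene, which the fetal pancreas transcribes, read 1.43 and 1.22 in islets and 8.19 and 7.604 in pancreas, 5.98-fold lower (adjusted p = 1.2e-08), and Cck, cholecystokinin, was at least 23.4-fold lower.

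Clock genes and hormone receptors were higher in 9 (50%) and lower in 6 (33.3%) of 18 cases (median 0.42). Over all genes the shares were 35.0% and 37.5%. Under control-probe scaling 6 of the 18 were higher and 8 lower (median 0.12). Nr1d1, a repressor of the clock, read 119 and 104 in islets and 53.5 and 59.8 in pancreas, 1.96-fold higher (adjusted p = 9.6e-06), and Hlf, a clock output factor, was 1.95-fold higher. The time of day of collection is not given in the labels. Immediate early and stress genes, which can respond to dissection and islet isolation, were higher in 7 (29.2%) and lower in 11 (45.8%) of 24 cases (median -0.24). These shares compare with 35.0% and 37.5% of all genes. Ccl2, a chemokine, read 23.7 and 25.3 in islets and 2.58 and 2.40 in pancreas, 9.84-fold higher (adjusted p = 7.3e-10). Jun, a subunit of the AP-1 factor, read 3.90 and 3.62 in islets and 14.8 and 15.6 in pancreas, 4.05-fold lower, and Fos was close to background, at 0.432 and 0.299 in islets and 0.277 and 0.27 in pancreas.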
